A study of Homo sapiens with 4 samples.

Results

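Among 19748 autosomal windows of 1 kb in which DNA methylation could be compared, 545 were low, at a mean level of at most 25%, in both libraries of primed human embryonic stem cells. A window, here called a tile, was compared where at least 5 CpG cytosines had at least 10 reads in each of the 4 libraries, and its level was the mean share of methylated reads over those cytosines. The primed levels chose these 545 tiles, so their low primed level is a description and not a finding, and a difference that subtracts a primed level carries that choice with it. The study profiled H9 cells, a human embryonic stem cell line in wide use, by bisulfite sequencing of captured DNA, with 1 library in each of 4 groups. The naive groups were B3GALT5-/- (KO) cells in 2iLAF medium and wild-type (WT) cells in 5iLAF medium, and the primed groups were KO and WT cells, both kept in basal medium. B3GALT5 encodes a galactosyltransferase of glycosphingolipid synthesis. The labels give no clone number for the KO cells, and the naive libraries differ in genotype and in medium, so the effects of these cannot be told apart.

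Bisulfite converts unmethylated cytosine and leaves methylated cytosine, so the share of reads that still show a cytosine measures methylation at that position. In mammalian genomes most CpGs are methylated, while CpG-rich stretches known as CpG islands, which sit at many promoters, are mostly free of it; they are kept so by active promoter chromatin or, at silent developmental genes, by Polycomb chromatin. Primed human embryonic stem cells carry high methylation elsewhere in the genome, and conversion to the naive state with inhibitor cocktails such as 5iLAF is known to lower it broadly. The 545 tiles are therefore places where the primed genome was already low and where a broad loss had little room to act.

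The sequences of 5 promoters inside these tiles are shown because together they cover the patterns described below. The tiles at the starts of LRRC20, a gene for a leucine-rich repeat protein, and BARHL1, a homeobox transcription factor gene of the developing nervous system and inner ear, stood higher in WT naive cells. Another tile of the set, 993 bases from the BARHL1 start, did not, with 25.8% in KO naive, 25.1% in WT naive, 17.4% in KO primed and 23.4% in WT primed. SLC27A2, a gene for an acyl-CoA synthetase of very long-chain fatty acids, lay in a tile that was lower in KO naive and higher in WT naive cells than in the primed cells of the same genotype. The tile of MX1, an interferon-induced antiviral GTPase gene, stood lower in WT naive cells than in the other libraries, and that of MAP6-AS1, an antisense RNA gene, was low in all 4. Each sequence is the 250 bases before the transcript start, 5′ to 3′ on the strand of the gene, from RefSeq on GRCh38.p14; capitals mark the CpGs measured with at least 10 reads in every library. LRRC20 lies at chr10:70381567-70381816 on the minus strand, BARHL1 at chr9:132582356-132582605, SLC27A2 at chr15:50181946-50182195, MX1 at chr21:41425989-41426238 and MAP6-AS1 at chr11:75582946-75583195, the last 4 on the plus strand.
LRRC20: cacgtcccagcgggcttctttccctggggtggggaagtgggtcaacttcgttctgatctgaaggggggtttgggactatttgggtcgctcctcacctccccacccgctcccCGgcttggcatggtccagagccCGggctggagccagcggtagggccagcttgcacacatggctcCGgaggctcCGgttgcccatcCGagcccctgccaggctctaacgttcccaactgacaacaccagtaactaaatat
BARHL1: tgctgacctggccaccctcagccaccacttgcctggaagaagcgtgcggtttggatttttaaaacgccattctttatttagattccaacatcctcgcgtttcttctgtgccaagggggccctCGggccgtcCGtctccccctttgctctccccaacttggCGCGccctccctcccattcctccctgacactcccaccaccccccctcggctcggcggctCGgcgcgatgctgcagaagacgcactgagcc
SLC27A2: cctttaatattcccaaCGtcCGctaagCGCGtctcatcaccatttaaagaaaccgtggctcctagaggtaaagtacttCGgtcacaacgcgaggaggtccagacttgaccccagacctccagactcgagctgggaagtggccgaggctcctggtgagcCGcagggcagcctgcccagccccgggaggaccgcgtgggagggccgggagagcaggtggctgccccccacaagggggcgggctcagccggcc
MX1: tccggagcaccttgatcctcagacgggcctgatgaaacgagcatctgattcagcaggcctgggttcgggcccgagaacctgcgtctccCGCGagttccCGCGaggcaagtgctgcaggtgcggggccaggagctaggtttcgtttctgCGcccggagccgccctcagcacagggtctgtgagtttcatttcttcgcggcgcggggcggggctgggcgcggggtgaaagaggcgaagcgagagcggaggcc
MAP6-AS1: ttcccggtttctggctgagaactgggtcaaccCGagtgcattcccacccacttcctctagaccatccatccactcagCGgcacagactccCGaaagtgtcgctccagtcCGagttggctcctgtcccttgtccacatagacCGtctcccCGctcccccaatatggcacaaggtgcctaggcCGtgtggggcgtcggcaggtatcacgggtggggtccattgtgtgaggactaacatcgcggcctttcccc

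At the 5 capitalised CpGs of LRRC20, the level was 15.6 to 41.2% in KO naive, 41.4 to 78.6% in WT naive, 5.26 to 25% in KO primed and 7.14 to 35.7% in WT primed. Each of the 5 CpGs was higher in WT naive than in any other library, on 27 to 33 reads there. The 5 CpGs of BARHL1 had 8.77 to 27.3% in KO naive and 23.8 to 75% in WT naive, against 4 to 16.7% in KO primed and 4.55 to 23.3% in WT primed. In BARHL1 the highest value, 75% of 16 reads, stood 90 bases before the start. The 6 CpGs of SLC27A2 had 3.51 to 16% in KO naive and 13.3 to 50% in WT naive, with 3.70 to 15.4% in KO primed and 8.70 to 32.6% in WT primed. Their mean was 9.78% in KO naive, 31.8% in WT naive, 9.29% in KO primed and 17.1% in WT primed, so KO naive stood below KO primed over the tile (9.74% and 19.9%) and not over these CpGs. Their KO naive values rest on 25 to 61 reads and their WT naive values on 12 to 17. The MX1 CpGs had 18.75 to 35.7% in KO naive, 7.69 to 10% in WT naive, 5.88 to 28.6% in KO primed and 21.1 to 23.5% in WT primed. Each MX1 value in WT naive is 1 methylated read of 10 or 13, which is the lowest that a listed cytosine at that depth can show. The 7 CpGs of MAP6-AS1 had 1.72 to 11.1% in KO naive, 3.57 to 23.1% in WT naive, 6.25 to 35.9% in KO primed and 2.08 to 25% in WT primed, and the libraries overlapped throughout.

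**Figure D1:**
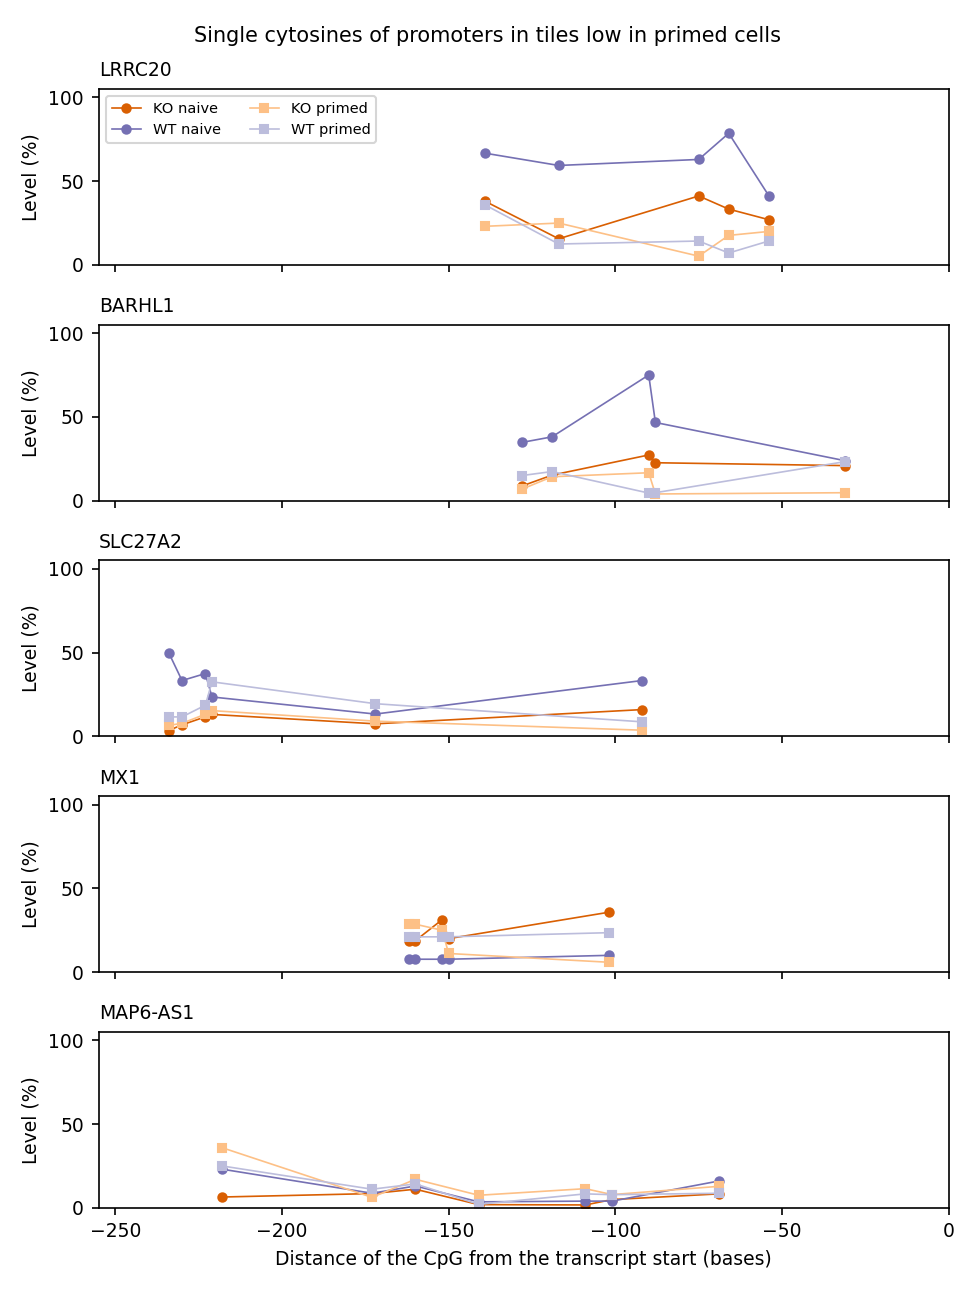
Methylation level of single CpG cytosines (y axis, %) by distance from the transcript start (x axis, bases) in 5 promoters, with 1 line per library. In LRRC20 and BARHL1 every WT naive point lies above the KO naive point of the same CpG, in MX1 every WT naive point lies below it, and the MAP6-AS1 lines stay under 40%.

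The libraries listed 2257287 autosomal cytosines in KO naive, 1955982 in WT naive, 2124065 in KO primed and 2035601 in WT primed, at a median of 13, 8, 8 and 7 reads in that order. Their summed autosomal reads were 39064819, 23028501, 27156162 and 23454725, so KO naive was the deepest library. A cytosine was listed only with at least 1 methylated read, so a site without methylation is not seen and every low level given here is overstated. Over all 19748 tiles the mean level was 54.6% in KO naive, 53.07% in WT naive, 75.9% in KO primed and 74.9% in WT primed. With 1 library per group no difference between groups has a replicate check, and intervals cover counting error only, since reads of a library without molecular identifiers are not independent molecules.

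Over the 545 tiles the mean level was 16.5% ± 9.29 in KO naive, 21.7% ± 12.4 in WT naive, 15.9% ± 5.83 in KO primed and 15.8% ± 5.75 in WT primed (SD over tiles). The medians were 15.1%, 19.2%, 16.2% and 16.3% in the same order. The lowest and highest tiles were 0.354% and 79.3% in KO naive and 0.327% and 71.3% in WT naive, while the rule kept the primed libraries at or below 25%. The label of low methylation in primed cells therefore held by construction, and the naive libraries, which the rule did not use, spread further up. At the level of the 5678 single cytosines in these tiles, 99 (1.74%) were above 50% in KO naive and 308 (5.42%) in WT naive, against 91 (1.60%) in KO primed and 73 (1.29%) in WT primed.

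**Figure D2:**
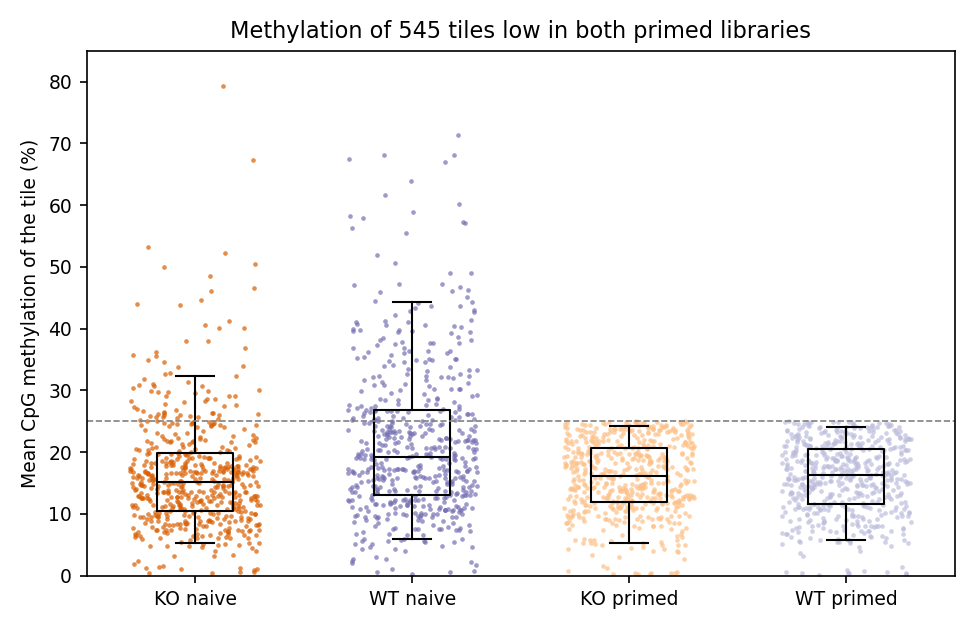
Mean CpG methylation (y axis, %) of each of the 545 tiles (points) in the 4 libraries (x axis), with boxes for the median and quartiles, whiskers for the central 90% of tiles and a dashed line at 25%. The naive libraries reach 79.3% (KO) and 71.3% (WT), while their medians of 15.1% and 19.2% lie near the primed medians of 16.2% and 16.3%.

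Most of the tiles were also low in the naive libraries. At or below 25% were 470 of 545 tiles in KO naive (86.2%, Wilson 95% interval 83.1 to 88.9%) and 378 in WT naive (69.4%, 65.4 to 73.1%). Both naive libraries were at or below 25% in 362 tiles (66.4%), and 21 tiles were at or below 10% in all 4 libraries. Above 25% in both naive libraries were 59 tiles (10.8%), above 25% in WT naive alone 108 (19.8%) and above 25% in KO naive alone 16 (2.94%). Over all 19748 tiles, the shares at or below 25% were 11.2% in KO naive, 11.3% in WT naive and 7.31% in both. Above 25% were 84.8% of all tiles in both naive libraries, 3.90% in WT naive alone and 3.97% in KO naive alone. The 2.94% for KO naive alone was therefore not above the share over all tiles. The rule keeps every tile at or below 10% in all 4 libraries, so the 21 are all such tiles among those compared (0.106%). Cytosines without a methylated read are unlisted, so tiles with little or no methylation can be missing from these counts and from the 545. With unlisted cytosines filled in at 0, 3101 tiles met the primed limit.

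The naive levels stood on both sides of the primed ones. The difference of KO naive minus KO primed averaged 0.597 points (SD over tiles 9.33) with a median of -0.677, so that mean and median differ in sign; 253 tiles were higher and 292 lower in KO naive, and 283 were within 5 points. The difference of WT naive minus WT primed averaged 5.87 points (SD 12.6, median 2.74), with 336 tiles higher and 209 lower in WT naive, and 226 tiles within 5 points. Over all tiles the same differences averaged -21.3 points for KO and -21.8 points for WT. With tiles chosen by 1 primed library alone, that of the genotype not compared, the mean difference was -4.01 points for KO and 1.97 points for WT, so the sign for KO turned with the choice of tiles.

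A rule of size asked for a mean change of 25 points or more that 80% or more of a tile's cytosines shared in direction. By this rule 11 tiles were higher in KO naive than in KO primed, where the share over all tiles was 0.213%. By the same rule 46 tiles were higher in WT naive than in WT primed, against 0.496% of all tiles. The rule named 9 tiles as higher in the naive library of both genotypes, out of 14 such tiles (0.0709%) among all those compared. No tile of the 545 was lower by the rule in either comparison, where 34.4% of all tiles were lower in KO naive and 37.6% in WT naive; a level of at most 25% leaves only that much room to fall. These counts use the contrast that chose the tiles, and nothing is read from their distance to the background. When 20 reads were required of each cytosine, 297 tiles were left, of which 1 was higher in KO naive (0.045% of all tiles at that depth), 8 in WT naive (0.27%) and 0 in both.

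The highest of these 9 tiles was chr17:4763001-4764000 (hg19, as all tile coordinates), with 79.3% ± 14.5 in KO naive, 68.2% ± 19.05 in WT naive, 13.9% ± 7.34 in KO primed and 18.1% ± 12.5 in WT primed (SD over 17 cytosines). On chr22:19751001-19752000 the levels were 67.3% ± 13.6 in KO naive and 71.3% ± 21.99 in WT naive, with 8.86% in KO primed and 8.004% in WT primed over 8 cytosines. On chr20:61927001-61928000 the naive levels were 53.2% ± 13.6 in KO and 56.2% ± 15.3 in WT, with 13.9% in KO primed and 20.3% in WT primed. In each of the 3 both naive libraries lay far above both primed ones. Of the 9 tiles, 3 lay within 1 kb of a transcript start that could be placed, those of RGS12, SPOCK2 and LOC105376291. RGS12, a gene for a regulator of G protein signalling, had 52.2% in KO naive, 61.7% in WT naive, 20.4% in KO primed and 22.4% in WT primed. SPOCK2, a gene for an extracellular matrix proteoglycan, had 44.0%, 33.5%, 15.8% and 8.004% in the same order. Over the 50 adjacent tested tiles outside the set the mean was 32.5% ± 19.1 in KO naive and 36.5% ± 16.2 in WT naive. It was 47.9% ± 20.5 in KO primed and 45.9% ± 23.3 in WT primed. Being outside the set, each of these tiles was above the primed limit in KO primed, in WT primed or in both. Adjacent tiles that were also low belong to the set and were left out. These means therefore cannot show how local the low levels were.

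The comparison of the naive libraries with each other uses neither primed library. Over the 545 tiles KO naive minus WT naive averaged -5.20 points (SD over tiles 9.67, median -3.36), with KO naive lower in 383 tiles and higher in 162. Over all 19748 tiles the same difference was 1.52 points, in the opposite direction. KO naive was also lower over the 50 adjacent tested tiles outside the set, at a mean of 32.5% against 36.5% in WT naive. A lower KO naive level was therefore not limited to the 545 tiles. By the rule of size 22 tiles (4.04%) were lower in KO naive, against 1.23% of all tiles, and 0 were higher, against 2.55%. At a minimum of 20 reads the mean difference was -2.29 points, against 1.72 points over all tiles at that depth, and 5 of 297 tiles were lower, against 0.36% of all tiles. Among the primed libraries the mean difference of KO minus WT was 0.0738 points, and the rule of size found 0 tiles higher and 0 lower (1.18% and 0.582% of all tiles). Both primed levels were held at or below 25%, so the choice of tiles itself left almost no room for a primed difference of 25 points.

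Fisher's exact test on the reads of single cytosines, two-sided with Benjamini-Hochberg adjustment over 396398 cytosines, called 96 cytosines lower in KO naive than in WT naive, in 60 of the tiles. That is 1.69% of the 5678 cytosines, against 0.496% of all cytosines, and 1 was called higher (0.0176%), against 0.908%. Without adjustment, at a p under 0.05 and 25 points, 362 were lower (6.38%, against 4.71% of all cytosines) and 35 higher (0.616%, against 7.10%). Between the primed libraries the test called 14 cytosines higher in KO (0.247%, against 0.566% of all cytosines) and 18 lower (0.317%, against 0.287%). For KO naive against KO primed it called 127 higher (2.24%, against 0.394%) and 109 lower (1.92%, against 27.5%). For WT naive against WT primed it called 357 higher in 161 tiles (6.29%, against 0.828%) and 73 lower (1.29%, against 26.8%). Each of these pairs holds a primed library that chose the tiles, so nothing is read from their distance to the background. The test compares the reads of a pair of libraries and not the conditions, and it takes reads as independent.

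**Figure D3:**
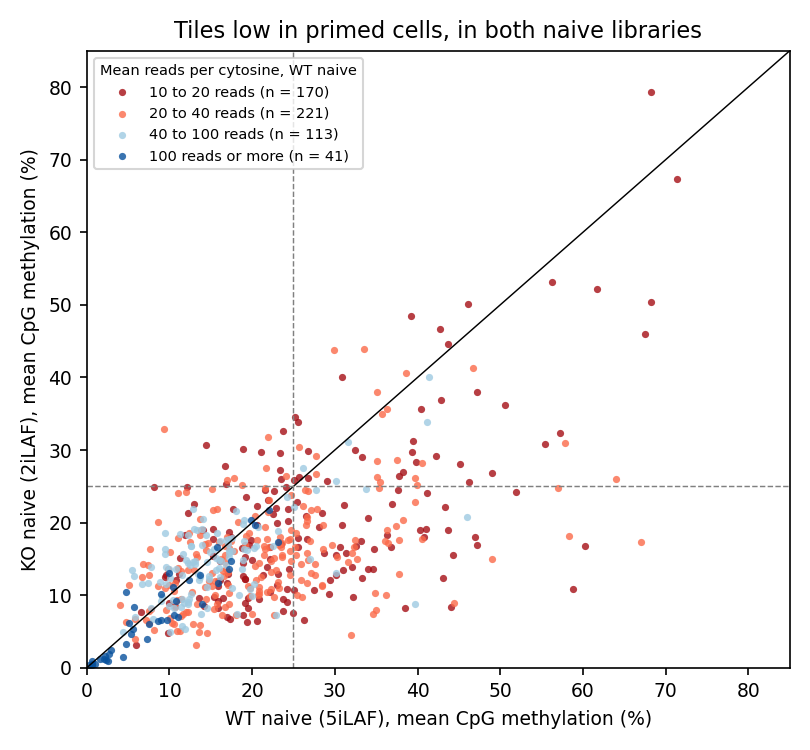
Mean CpG methylation of the 545 tiles in KO naive (y axis, %) against WT naive (x axis, %), coloured by mean reads per cytosine in WT naive, with the line of equal levels and dashed lines at 25%. The 383 tiles below the line are lower in KO naive, and the 41 tiles at 100 reads or more sit near the line at low levels.

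Read depth moved with this difference. The median tile had 40.8 reads per cytosine in KO naive, 26 in WT naive, 34.25 in KO primed and 30.1 in WT primed. In the 170 tiles at 10 to 20 reads in WT naive, the mean was 20.3% in KO naive and 28.2% in WT naive, a difference of -7.85 points. In the 221 tiles at 20 to 40 reads it was 16.0% in KO naive and 21.9% in WT naive, a difference of -5.95 points. The difference was -1.24 points in the 113 tiles at 40 to 100 reads and -0.998 points in the 41 tiles at 100 reads or more, with KO naive lower in 126, 163, 63 and 31 tiles of the 4 classes. Of the 11 tiles higher in KO naive than in KO primed, 8 lay in the first class and 3 in the next, and of the 46 in WT cells, 28 lay in the first class, 16 in the next and 2 at 40 to 100 reads. The primed means were 16.7% in KO and 16.7% in WT in the first class, and 16.0% and 15.8% in the next. At 40 to 100 reads the means were 14.8% in KO naive, 16.1% in WT naive, 16.7% in KO primed and 16.8% in WT primed. At 100 reads or more they were 7.56%, 8.56%, 9.50% and 9.35% in the same order. In these deeper classes each naive library thus lay below the primed library of its genotype. A cytosine is listed only with a methylated read, so the lowest level that it can show falls with depth. With 10 reads drawn per cytosine in every library, KO naive minus WT naive was -4.62 points. With cytosines that then had no methylated read also left out, it was -2.71 points over the 72 tiles that remained.

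**Figure D4:**
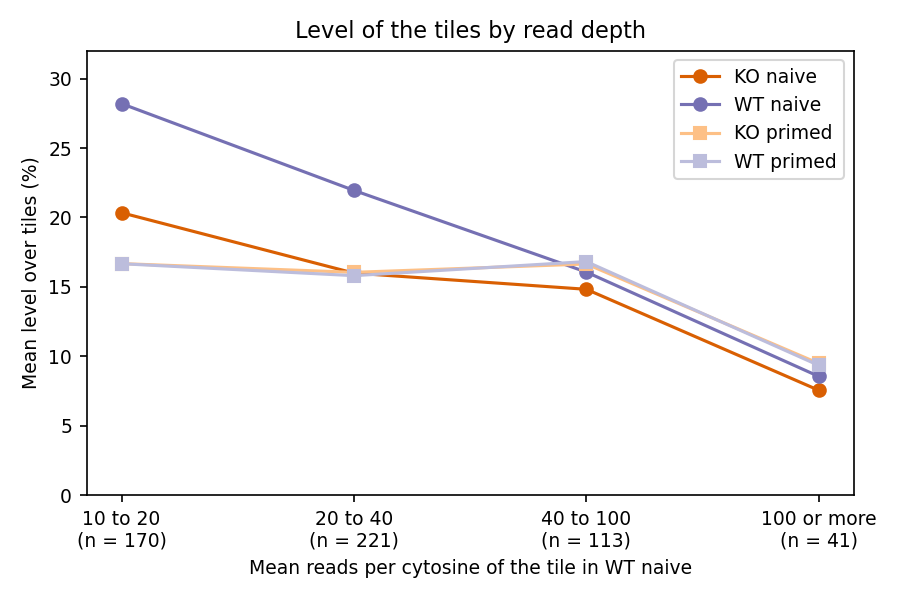
Mean level over tiles (y axis, %) by class of mean reads per cytosine in WT naive (x axis, number of tiles below each class), with 1 line per library. KO naive stands at 20.3% in the shallowest class and 7.56% in the deepest, where WT naive stands at 28.2% and 8.56%.

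Among the tiles with at least 10 cytosines and at most 100 reads, of which there were 113, the largest decrease in KO naive was on chr3:16306001-16307000. Its levels were 20.8% ± 3.32 in KO naive, 45.9% ± 15.1 in WT naive, 10.4% ± 2.69 in KO primed and 13.5% ± 2.32 in WT primed (SD over 10 cytosines). There the read depth was 42.1 reads in KO naive and 45.1 in WT naive, so the deeper library was WT. On chr15:68121001-68122000, the levels were 12.9% ± 7.47 in KO naive and 37.7% ± 17.6 in WT naive, with 14.2% in KO primed and 12.9% in WT primed. The tile chr12:106974001-106975000, 1782 bases from the start of RFX4, a winged-helix transcription factor gene of the developing brain, had 26.9% ± 12.2 in KO naive, 49.1% ± 22.6 in WT naive, 23.2% in KO primed and 15.8% in WT primed. In these 3 tiles WT naive stood above the other libraries. The largest increase in KO naive was on chr11:105892001-105893000 at the start of MSANTD4, with 24.9% ± 5.09 in KO naive, 12.1% ± 5.02 in WT naive, 19.2% in KO primed and 13.6% in WT primed. The mean depth of that tile was 22.2 reads in KO naive and 11.8 in WT naive. On chr2:145147001-145148000 the levels were 20.02% ± 7.30 in KO naive and 8.57% ± 5.69 in WT naive, on 61.6 and 38.7 reads.

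Among the cytosines called lower in KO naive than in WT naive, position 72830 of chromosome 9 had the smallest adjusted p, 0.00019 in Fisher's exact test. Its level was 20.6% of 160 reads in KO naive and 52% of 125 in WT naive, with 29.1% in KO primed and 26.0% in WT primed. Others with a small adjusted p lay in the tile of HOXA3 and on chromosome 16. In the tile of HOXA3, a homeobox gene of hindbrain and pharyngeal patterning, the cytosine at position 27162105 of chromosome 7 had 2 methylated reads of 29 in KO naive (6.90%) and 11 of 13 in WT naive (84.6%), with an adjusted p of 0.00146 in Fisher's exact test. The same cytosine had 8% in KO primed and 9.09% in WT primed. At position 30023737 of chromosome 16, KO naive had 3 methylated reads of 45 (6.67%) and WT naive 26 of 44 (59.1%), with an adjusted p of 0.000244 in Fisher's exact test. Its primed levels were 56% in KO and 50% in WT, so this cytosine was not itself low in primed cells although its tile was.

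Gene names were given to tiles by placing RefSeq promoters of another genome build on the measured cytosines through the spacing of their CpGs, which placed 3827 promoters of 3427 genes. Of the 545 tiles, 52 (9.54%) held a placed start, against 665 (3.46%) of the other tiles, and 85 (15.6%) were within 1 kb of one, against 1017 (5.30%). Most promoters could not be placed, so a tile without a start is not known to lie outside genes. The promoter sequences included none of chromosome 8. Its 875 tested tiles, 25 of them among the 545, could therefore hold no placed start and count as tiles without one. The tiles also listed more CpGs, with a median of 23 per tile against 12 in the other tiles. A promoter needed at least 8 CpGs to be placed, so placement itself favours tiles dense in CpGs. The 52 tiles with a start averaged 16.4% in KO naive and 21.99% in WT naive, and the 425 tiles with none placed within 5 kb averaged 16.3% in KO naive and 21.3% in WT naive.

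Developmental regulators were among the genes with a tile within 1 kb of their start. Of all 1102 tested tiles within 1 kb of a placed start, 85 (7.71%) were among the 545. In the list of HOX genes 3 of 7 such tiles were (HOXA3, HOXA11 and HOXD10), and in the list of germ layer and patterning regulators the 1 tile tested, at WT1. Of the tested tiles near germline genes 0 of 8 were, near imprinted genes 0 of 9 and near pluripotency genes 0 of 1, and no housekeeping gene of the list was placed. HOXA3 had 30.8% in KO naive, 55.4% in WT naive, 16.1% in KO primed and 21.5% in WT primed. HOXA11, a homeobox gene of limb and uterine development, had 25.3%, 16.9%, 10.4% and 15.1%, and HOXD10 had 15.2%, 11.3%, 21.2% and 18.9% in the same order. HOXA3 and HOXA11 were higher in each naive library than in the primed library of the same genotype, and this tile of HOXD10 was lower in both. A further tile, 3506 bases from the HOXD10 start, went the other way, with 28.3% in KO naive, 39.8% in WT naive, 8.16% in KO primed and 13.4% in WT primed, and passed the rule of size in WT cells. WT1, a zinc finger transcription factor gene of kidney and gonad development, had 25.7% in KO naive, 29.1% in WT naive, 14.03% in KO primed and 14.1% in WT primed in the tile of its start. In another tile of the set, chr11:32449001-32450000, 2359 bases from that start, KO naive was below KO primed. Its levels were 12.4% in KO naive, 33.3% in WT naive, 23.6% in KO primed and 24.97% in WT primed. NR2F2, which encodes the nuclear receptor COUP-TFII, had 40.05% in KO naive and 30.9% in WT naive, against 13.96% in KO primed and 11.4% in WT primed, and passed the rule of size in KO cells. FENDRR, a long noncoding RNA gene next to FOXF1, had 30.7% in KO naive, 14.4% in WT naive, 8.1% in KO primed and 19.7% in WT primed.

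Among the other genes with a tile of high mean level in the naive libraries were DUOX2 with DUOXA2, HBM and DUSP22. The divergent pair DUOX2 and DUOXA2, an oxidase that makes hydrogen peroxide and its maturation factor, had 29.1% ± 12.3 in KO naive, 42.3% ± 14.2 in WT naive, 11.8% in KO primed and 9.04% in WT primed over 10 cytosines. HBM, a globin gene of the alpha cluster, had 28.1% in KO naive, 45.2% in WT naive, 7.8% in KO primed and 9.8% in WT primed. DUSP22, a gene for a dual specificity phosphatase, had 16.7% in KO naive, 60.2% in WT naive, 3.8% in KO primed and 17.6% in WT primed. In DUSP22 only WT naive was above 25%; the mean depth was 22.7 reads in KO naive and 11.8 in WT naive. Lower in that order of the 85 tiles, HCRTR2, a receptor gene for orexin peptides, had 11.3% in KO naive and 28.4% in WT naive, against 5.7% in KO primed and 11.7% in WT primed. EDNRB, a receptor gene for endothelins, had 7.3% in KO naive and 22.6% in WT naive, against 14.9% in KO primed and 13.6% in WT primed.

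Among the tiles with the lowest naive levels were those of HSPA1A with HSPA1L, of COX7C and of FTL. The tile of HSPA1A and HSPA1L, a pair of heat shock protein genes, had 8.64% ± 3.19 in KO naive, 4.01% ± 1.94 in WT naive, 11.6% ± 5.76 in KO primed and 14.5% ± 6.77 in WT primed over 15 cytosines. COX7C, a gene for a subunit of cytochrome c oxidase, had 6.3% in KO naive, 4.7% in WT naive, 12.1% in KO primed and 5.3% in WT primed. FTL, which encodes the ferritin light chain, had 7.0%, 5.9%, 11.5% and 11.6% in the same order. The mean depth of the FTL tile was 105.4 reads in KO naive, above the read limit of the naming rule. It was 56.2 reads in WT naive, 48.2 in KO primed and 53.2 in WT primed. Whether reads in the tile of HSPA1A and HSPA1L come from other places in the genome as well was not tested. The lowest tile of the 113 was chr12:117808001-117809000, at 4.94% ± 2.10 in KO naive, 4.40% ± 3.31 in WT naive, 6.40% ± 2.77 in KO primed and 8.37% ± 2.59 in WT primed over 14 cytosines. In HSPA1A, FTL and the chromosome 12 tile both naive libraries lay below both primed ones. These genes were chosen after their values were seen, from the 85 tiles within 1 kb of a start.

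**Figure D5:**
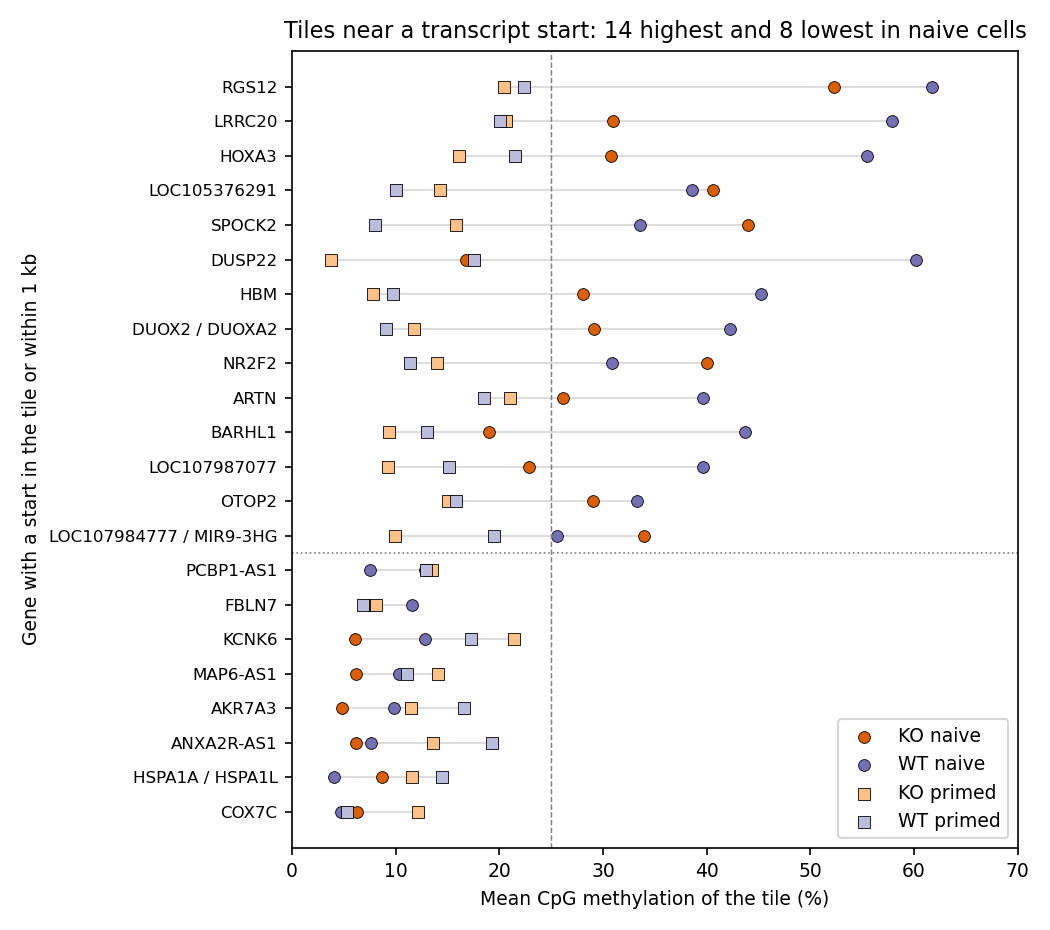
Mean CpG methylation (x axis, %) of tiles in or within 1 kb of a placed transcript start (rows, by gene), 14 with the highest and 8 with the lowest mean of both naive libraries among those with at most 100 reads; symbols mark the 4 libraries and the dashed line 25%. WT naive is the rightmost symbol for LRRC20 (57.9%), HOXA3 (55.4%) and DUSP22 (60.2%), while KO naive is rightmost for SPOCK2 (44.0%) and NR2F2 (40.05%).

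The levels of KO naive and WT naive correlated over the 545 tiles with r = 0.634 (Pearson) and rho = 0.571 (Spearman). Those of KO primed and WT primed, which chose the tiles and end at 25%, had r = 0.572 and rho = 0.518. Naive and primed levels of the same genotype had an r of 0.306 in KO and 0.193 in WT cells, and the 25% limit narrows the primed range in these as well. Coverage and level in WT naive had an r of -0.467 and a rho of -0.485. These correlations are across tiles, which share the libraries, their depth and the base composition of the tile, and are not replicates. Over the 460 tiles with at most 100 reads in every library, the r of the naive levels was 0.588 and that of the primed levels 0.424. Between naive and primed levels it was 0.185 in KO and 0.0584 in WT cells over these 460 tiles.

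Some of the tiles carried very many reads. A mean above 100 reads in at least 1 library was found in 85 of the 545 tiles (15.6%), against 602 of the other tiles (3.13%), and whether their reads come from more than 1 place in the genome was not tested. The longest run of adjacent members was 5 tiles on chr5:99386001-99391000, at 3.29% in KO naive, 4.38% in WT naive, 2.91% in KO primed and 2.47% in WT primed over 97 cytosines. Its mean depth was 800 reads in KO naive, 355 in WT naive, 2399 in KO primed and 2267 in WT primed. In all, 61 tiles lay in 27 runs, among them 3 adjacent tiles at MIR663AHG on chr20:26188001-26191000 and 3 at FOXD4 on chr9:116001-119000. FOXD4, FAM72A, FAM72D and FRG1 have near-identical copies, and HLA-B and HLA-C are alike, so values in their tiles are uncertain. The share of tested tiles that were low was highest on chromosome 9, with 40 of 760 tiles (5.26%), and lowest on chromosome 13 with 4 tiles (0.815%).

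Many cytosines of these tiles were missing from the primed tables. Of the cytosines of the 545 tiles listed in any library, 22.2% were unlisted in KO naive, 29.8% in WT naive, 39.03% in KO primed and 43.7% in WT primed. In the other tiles these shares were 9.17%, 18.0%, 11.5% and 13.6% in the same order. An unlisted cytosine had either no reads or no methylated read. With unlisted cytosines filled in at 0 from the coverage of their neighbours, the same 545 tiles averaged 14.4% ± 8.91 in KO naive, 18.6% ± 11.4 in WT naive, 12.9% ± 5.97 in KO primed and 12.8% ± 6.12 in WT primed. The order of the libraries was the same as without filling in, at lower levels.

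At the edge of the rule, the members with the highest primed level were the tile of YBX1 on chr1:43148001-43149000, with 25% in KO primed and 7.25% in WT primed, chr9:126794001-126795000, with 24.99% in KO primed and 10.9% in WT primed, and chr11:32449001-32450000, with 23.6% in KO primed and 24.97% in WT primed. Just outside were chr13:53171001-53172000, with 25.02% in KO primed and 19.1% in WT primed, chr7:155255001-155256000, with 19.8% in KO primed and 25.03% in WT primed, and chr17:77816001-77817000, with 11.8% in KO primed and 25.05% in WT primed. The naive levels of the first 3 were 8.54 to 21.9% in KO and 10.7 to 33.3% in WT, and those of the last 3 were 28.8 to 46.6% in KO and 27.2 to 53.2% in WT.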

How the data were processed

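Genomic DNA of 4 H9 cultures was captured with a methylation kit and bisulfite sequenced, and a conversion of 99% was stated for each library, per the labels' protocols. Per the submitters' processing notes, positions are those of hg19 (GRCh37). Which aligner and caller were used, and how duplicates were treated, is not given in the sources used here. Each deposited table covers 1 library and gives, per the file headers, raw read counts (total, context and methylated coverage) and the methylation level as a fraction for single cytosines of either strand. Cytosines with 0 methylated reads were not listed.

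Levels were methylated over context coverage, in percent, on autosomes, with the strands kept apart and equal weight per cytosine. Tiles were (position − 1) divided by 1000, kept with at least 5 cytosines at 10 or more reads in all 4 libraries. The samples were grouped by genotype and state from the labels, 1 library per group, so a rule of size (25 points, 80% of cytosines) took the place of a test between conditions. Fisher's exact tests on reads per cytosine were adjusted by the Benjamini-Hochberg method over all 396398 cytosines and called at an adjusted p under 0.05 with at least 25 points. Shares have Wilson 95% intervals. The test was tested on simulated data. Python 3.11.15, numpy 2.4.6, pandas 2.3.3, scipy 1.17.1, numba 0.67.0 and matplotlib 3.10.9 were used.

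The members and gene lists were chosen with earlier results of these data known. The naming rule took, among tiles with at least 10 cytosines and at most 100 reads, the highest and lowest in the naive libraries and the largest differences between these. Without those limits it took the edges of the 25% threshold and the longest runs. Genes were to be named only from an annotation of hg19. After the data were seen, RefSeq promoters of GRCh38.p14 (300 bases, at least 8 CpGs) were instead placed on the files' cytosines by the spacing of CpGs, and accepted where a neighbouring promoter kept the same distance in both builds; 3827 of 4155 placements passed, and 0 of 130 placements of mirrored sequences. No coordinate was converted. Genes outside the naming rule were chosen after their values were seen. Alternatives were other coverage minimums, primed thresholds, sizes of difference and numbers of cytosines per tile, read weighting, merged strands, filled-in sites and drawn reads.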

Additional observations from a re-analysis of the deposited data

Results flagged for a closer look

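In 9 tiles, the level was at least 10 points lower in naive than in primed KO cells and at least 10 points higher in naive than in primed WT cells. That is 1.65% of the 545 tiles, against 0.911% of all 19748 tiles, and these differences subtract the primed levels that chose the tiles. The largest gap was on chr16:30023001-30024000, with 8.88% in KO naive, 44.5% in WT naive, 21.97% in KO primed and 20.9% in WT primed. Next was chr22:30279001-30280000, with 4.53% in KO naive, 31.9% in WT naive, 14.9% in KO primed and 8.40% in WT primed. The tiles of SLC27A2, LINC01725 and CBLN3 were among the 9. In 2 tiles, at LOC100288069 and FAM72D, the directions were the other way round, with 21.9% and 19.1% in KO naive against 12.9% and 13.9% in WT naive (0.367% of the 545 tiles, against 0.279% of all tiles). With 1 library per group, the difference between the genotypes was not tested, and the medium differed with the genotype.

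A further 1317 cytosines in 261 of the 545 tiles had at least 10 reads in both naive libraries and were listed in neither primed library, so the levels in the report do not include them, other than the means with unlisted cytosines filled in, which can. Their mean naive level was 16.4%, and 239 of them were at or above 25%. In the other direction, 191 cytosines in 117 tiles were listed in both primed and in neither naive library, at a mean of 13.3%.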

How the results depend on the processing

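The mean of KO naive minus WT naive stayed negative under every alternative run, between -6.08 and -2.29 points. That of KO naive minus KO primed changed sign, between -4.01 and 6.44 points. That of WT naive minus WT primed stayed positive, between 1.07 and 9.56 points. At a minimum of 20 reads, however, the median of WT naive minus WT primed was -0.605, with 160 of 297 tiles lower in WT naive. In the main setting, tiles at 40 or more reads in WT naive also averaged lower in WT naive than in WT primed. The settings that leave out cytosines with no methylated read drawn, or tiles of over 100 reads, were chosen after the data were seen. Where a value moved, the cause was not tested. At a minimum of 5 reads the mean difference from primed was 1.86 points in KO and 7.45 in WT, 20 tiles were higher in KO naive than in KO primed and 18 in both genotypes, and 82.1% of tiles in KO naive and 60.6% in WT naive were at or below 25%. At 20 reads, with 297 tiles, the differences from primed were -0.813 in KO and 1.07 in WT, KO minus WT was -2.29 in naive and -0.404 in primed cells, 1 tile was higher in KO naive, 8 in WT naive and 0 in both, 5 were lower in KO naive than in WT naive, and the shares were 93.9% in KO naive and 86.9% in WT naive. With at least 10 cytosines per tile, 159 tiles remained, WT naive minus WT primed was 3.47 and KO minus WT naive -3.40, the counts were 1 in KO, 5 in WT, 1 in both and 1 lower in KO naive, and the shares were 89.3% in KO naive and 77.4% in WT naive. Of all tiles in that setting, 0.125% were higher in KO, 0.249% higher in WT and 0.405% lower in KO naive than in WT naive. A primed threshold of 20% gave 316 tiles, differences of 2.00 in KO and 7.69 in WT, counts of 6 in KO, 30 in WT and 5 in both, and 89.2% low in KO naive. At 15% these were 160 tiles, 3.11 in KO and 9.56 in WT, 4 in KO, 18 in WT and 3 in both, and 90.6%, with KO minus WT naive at -6.03 and 7 tiles lower. Drawing 10 reads per cytosine gave 1.49 points for KO naive minus KO primed and 5 tiles higher in both. With that draw 1 tile was higher in KO naive than in WT naive, against 3.13% of all tiles, and 82.3% were low in KO naive. Leaving out cytosines with no methylated read among those drawn gave 72 tiles, 6.44 points in KO, 8.77 in WT, -2.71 for KO minus WT naive and -0.380 for KO minus WT primed, counts of 7 in KO, 8 in WT, 3 in both and 2 lower in KO naive, and shares of 61.1% in KO naive and 47.2% in WT naive. Of all tiles so treated, 0.146% were higher in KO, 0.353% higher in WT and 1.36% lower in KO naive than in WT naive. Without tiles of over 100 reads WT naive minus WT primed was 7.22, KO minus WT naive -6.08 and the share in WT naive 64.6%. Chosen on WT primed alone, KO naive minus KO primed was -4.01, and chosen on KO primed alone, WT naive minus WT primed was 1.97. Filling in unlisted cytosines at 0 gave 3101 tiles, of which 49 were higher in KO naive, 208 in WT naive and 37 in both. Of all tiles so filled in, 0.357% were higher in KO naive and 1.17% in WT naive. Of the 3101 tiles, 1 was higher and 89 lower in KO naive than in WT naive, against 2.4% and 1.29% of all tiles. The shares at or below 25% were 94.6% in KO naive and 83.0% in WT naive. A difference of 50 points left 2 tiles in KO, 4 in WT, 2 in both and 0 lower in KO naive. Of all tiles at 50 points, 0.0203% were higher in KO, 0.0354% higher in WT and 0.0152% lower in KO naive than in WT naive. At 5 reads 0.162% of all tiles were higher in KO naive than in KO primed. The primed threshold leaves the shares over all tiles unchanged. For both genotypes together that share was computed in the main setting only. No paired analysis was possible because each group holds 1 library, which carries no replicate number to pair. Depth limits most the tiles under 20 reads, where 1 methylated read moves a cytosine by over 5 points.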

Other observations

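Of the cytosines in the 545 tiles, 7.75% in KO naive, 12.06% in WT naive, 12.3% in KO primed and 14.4% in WT primed rested on a single methylated read. Weighted by reads over all these cytosines, the level was 9.22% in KO naive, 11.9% in WT naive, 4.65% in KO primed and 4.68% in WT primed. This gives most weight to very deep tiles, whose depth differed between libraries. One of them, chr1:567001-568000, had 2036 reads in KO naive and 7228 in KO primed, at 0.579% and 0.273%. With reads weighted within tiles and tiles counted equally, 611 tiles averaged 16.1% in KO naive, 21.0% in WT naive, 15.8% in KO primed and 15.7% in WT primed.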
